A study of Mus musculus with 8 samples.

Results

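Immediate early genes are the first genes that a cell transcribes after a growth factor or a stress signal, from factors already present and without new protein synthesis. Kinase cascades act on serum response factor (SRF) with its ternary complex factors at CArG boxes, and on CREB and ATF1 at cyclic AMP response elements. Many of the transcripts are short-lived because AU-rich elements in the 3′ untranslated region (3′UTR) recruit proteins that trigger removal of the poly(A) tail. JUN and FOS, the subunits of AP-1, belong to the same class, and the genes described here are members of the class that lie outside AP-1.

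The 9 genes were the transcription factors Egr1, Klf6 and Nr4a1, the phosphatase Dusp1, the messenger decay factors Zfp36 and Zfp36l1, and Ier2, Ier3 and Ier5. They were chosen by name, and each matched 1 of the 50600 gene names in the deposited table. RNA was measured by poly(A)-selected RNA sequencing in JUN TetON ESCs, mouse embryonic stem cells of the OG2 line (a mixed 129SVJ, C57B6 and CBA background, passage P12) in which doxycycline turns on c-Jun. All groups received doxycycline at 2 µg/ml and were labelled 6 h. The labels do not say whether this is the time in doxycycline, in compound or in both, and a legend in the study's supplement gives a longer time for JUN induction than for the compounds. The groups were DMSO (solvent), PFI-3 (a bromodomain inhibitor of BRG1, the ATPase of the BAF complex), BI-9564 (a bromodomain inhibitor of BRD7 and BRD9) and P+B (both compounds), with 2 libraries each and 8 in all. The labels give no compound concentrations, so whether P+B held each compound at its single dose is unknown. In the paper's colony assay P+B held each compound at a lower concentration than the single treatments did. The cells were grown without feeders in a medium that holds LIF, a GSK3 inhibitor and the MEK inhibitor PD0325901, which blocks the kinase above ERK. Cells without doxycycline were not analysed here, so each comparison is between cells that carry the induced transgene, and the values come from 1 cell line. Nothing in the labels says that the 2 libraries of a group were separate cultures, so p-values measure the spread between these libraries only.

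Values are TPM, a share of all transcripts scaled by transcript length, deposited as whole numbers. The libraries summed to between 991574 and 991897, 10285 to 10451 names per library reached a value of 5, and the read depth behind them is unknown. In bulk RNA, fewer cells that express a gene and less RNA per cell cannot be told apart. The embryonic stem cell marker Pou5f1 had values from 1104 to 1333, Sox2 from 66 to 111 and Nanog from 29 to 106. Nr5a2, the lowest of the 9 stem cell markers listed, ran from 3 to 12. The 10 fibroblast markers listed had values from 0 to 4 in all 8 libraries. The test covered the 10222 genes whose 8 libraries averaged 5 or more, by limma on log2(TPM + 1), with all 8 libraries in one fit and Benjamini-Hochberg adjustment over all tested genes. A gene was called changed when the adjusted p was below 0.05 and the fold change 1.5 or more. Of the 9 genes, 8 were tested and Egr1 was not, and each of the 8 had a value of at least 5 in every library.

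Several of the 9 genes are short. On GRCm38 (GENCODE M21), the gene spans were chr17:35821684-35822923 for Ier3, chr8:84661331-84662852 for Ier2, chr1:155096361-155099636 for Ier5 and chr7:28376784-28380253 for Zfp36. These 4 spans, of 1240 to 3470 bases, were longer than 2.45% to 8.64% of the 9999 tested genes with a gene model, whose median span was 22598 bases. Ier2 and Ier5 have 1 exon and no intron. Egr1 (5162 bases), Zfp36l1 (chr12:80107754-80113013) and Klf6 (chr13:5861482-5870394) followed, and Nr4a1 (chr15:101254269-101274795) lay near the median. Dusp1 is annotated at chr17:26505590-26562128, a span of 56539 bases, whereas its 4-exon transcript measures 1990 bases. Which isoforms set that span was not examined.

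The promoters of Dusp1, Ier3, Nr4a1 and Zfp36 are shown because the first pair were called lower in P+B against DMSO and the second pair were not called. The call alone separates them, since Zfp36 was also lower there (log2 fold change −0.77). Each is the RefSeq window (GRCm38.p6) from 250 bases before to 50 bases after the start site, 5′ to 3′ on the gene's strand. Capitals mark the searched motifs: the cyclic AMP response element TGACGTCA and its shorter form TGACG, or their reverse complements, the CArG box (SRF site, given by name alone), and the EGR site GCGGGGGCG or GCGTGGGCG. All were searched on both strands. The windows of Ier5, Klf6 and Zfp36l1, which were also not called, held none of these motifs and are not shown.
Dusp1 promoter, chr17:26508423-26508722, minus strand: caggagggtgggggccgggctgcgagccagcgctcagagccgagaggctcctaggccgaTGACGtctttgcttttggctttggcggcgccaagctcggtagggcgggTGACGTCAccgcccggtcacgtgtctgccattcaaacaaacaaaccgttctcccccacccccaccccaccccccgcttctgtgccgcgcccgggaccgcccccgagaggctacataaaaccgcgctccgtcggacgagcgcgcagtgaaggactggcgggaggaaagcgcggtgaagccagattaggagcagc
Ier3 promoter, chr17:35821463-35821762, plus strand: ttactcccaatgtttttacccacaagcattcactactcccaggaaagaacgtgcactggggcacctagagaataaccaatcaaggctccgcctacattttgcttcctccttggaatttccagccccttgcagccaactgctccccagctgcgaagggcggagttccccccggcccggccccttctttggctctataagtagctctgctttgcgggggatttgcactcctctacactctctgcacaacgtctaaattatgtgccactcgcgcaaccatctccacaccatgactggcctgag
Nr4a1 promoter, chr15:101266596-101266895, plus strand: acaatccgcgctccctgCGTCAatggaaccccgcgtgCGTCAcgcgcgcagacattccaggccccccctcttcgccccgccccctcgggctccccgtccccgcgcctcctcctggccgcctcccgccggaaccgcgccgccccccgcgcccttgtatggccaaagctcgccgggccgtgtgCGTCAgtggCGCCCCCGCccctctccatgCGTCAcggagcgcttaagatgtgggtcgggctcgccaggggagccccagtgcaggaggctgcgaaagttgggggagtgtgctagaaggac
Zfp36 promoter, chr7:28379179-28379478, minus strand: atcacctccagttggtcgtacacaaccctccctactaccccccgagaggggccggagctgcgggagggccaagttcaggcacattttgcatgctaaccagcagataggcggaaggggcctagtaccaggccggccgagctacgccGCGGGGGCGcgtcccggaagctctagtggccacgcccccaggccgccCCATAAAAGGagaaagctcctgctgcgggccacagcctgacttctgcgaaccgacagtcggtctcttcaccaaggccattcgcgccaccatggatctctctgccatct

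Of the 9 genes, 7 had a window (not Egr1 and Ier2). The full cyclic AMP response element was present in 1 of the 7, Dusp1, starting at position −143 relative to the start site, and in 1.79% of the 32851 mouse windows. The shorter form lay in Dusp1 and Nr4a1, in 20.8% of all windows, and the full element contains it on both strands. A CArG box lay in Zfp36, at position −58, and in 1.63% of all windows. The EGR site was found in Zfp36 and Nr4a1 and in 3.47% of all windows. The AP-1 site, TGACTCA or its reverse complement TGAGTCA, was in none of the 7 windows and in 5.2% of all windows. These matches describe letters in a short window and were not tested as binding sites.

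The 3′UTRs set some of the genes apart. The AU-rich heptamer TATTTAT, the core letters bound by the ZFP36 family, occurred on the sense strand 4 times in Ier3 (3′UTR of 613 bases) and 3 times in each of Dusp1 (690 bases), Zfp36 (774 bases) and Zfp36l1 (1835 bases). It occurred 2 times in Klf6 and not in Ier2, Ier5, Nr4a1 or Egr1. At least 1 copy was present in 27.5% of the 9369 tested genes with a 3′UTR, whose median length was 945 bases. Among tested genes with a 3′UTR of similar length, 0.153% held at least as many copies as Ier3 and 0.692% at least as many as Zfp36. The share was 0.806% for Dusp1, 2.96% for Zfp36l1 and 19.7% for Klf6. Such numbers of copies were thus found in genes that were called and in genes that were not. Windows of 30 bases are shown around 3 of the 4 copies in Ier3 and the 3 copies in Dusp1, the genes called lower. They read as follows from 5′ to 3′ on GRCm38, with the heptamer in capitals. The remaining copy in Ier3 begins within the first window.
Ier3 site 1, chr17:35822481-35822510, plus strand: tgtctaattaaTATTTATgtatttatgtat
Ier3 site 3, chr17:35822531-35822560, plus strand: ggtgtatgtaaTATTTATtctaacttatgc
Ier3 site 4, chr17:35822586-35822615, plus strand: tgtaacacagaTATTTATtacgatttatag
Dusp1 site 1, chr17:26506158-26506187, minus strand: gagctggtcctTATTTATttaacacccccc
Dusp1 site 2, chr17:26505869-26505898, minus strand: gtttttaccttTATTTATttttgtgtaggt
Dusp1 site 3, chr17:26505673-26505702, minus strand: gtatgtttgttTATTTATgatctgaagtaa

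With both compounds, Dusp1 and Ier3 fell relative to DMSO, and they were the only 2 of the 8 tested genes called by the fit without a replicate block. Dusp1 was 2.30-fold and Ier3 3.66-fold lower on the log2(TPM + 1) scale. With either compound alone 0 of the 8 genes was called, and Dusp1 was lower in P+B than in each single compound. Among all 10222 tested genes, 4% were called in P+B against DMSO, 2.72% as lower and 1.28% as higher. Under quantile normalization the split between higher and lower genes moved from 131 and 278 to 81 and 305, and under median centring to 86 and 401.

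**Figure D1:**
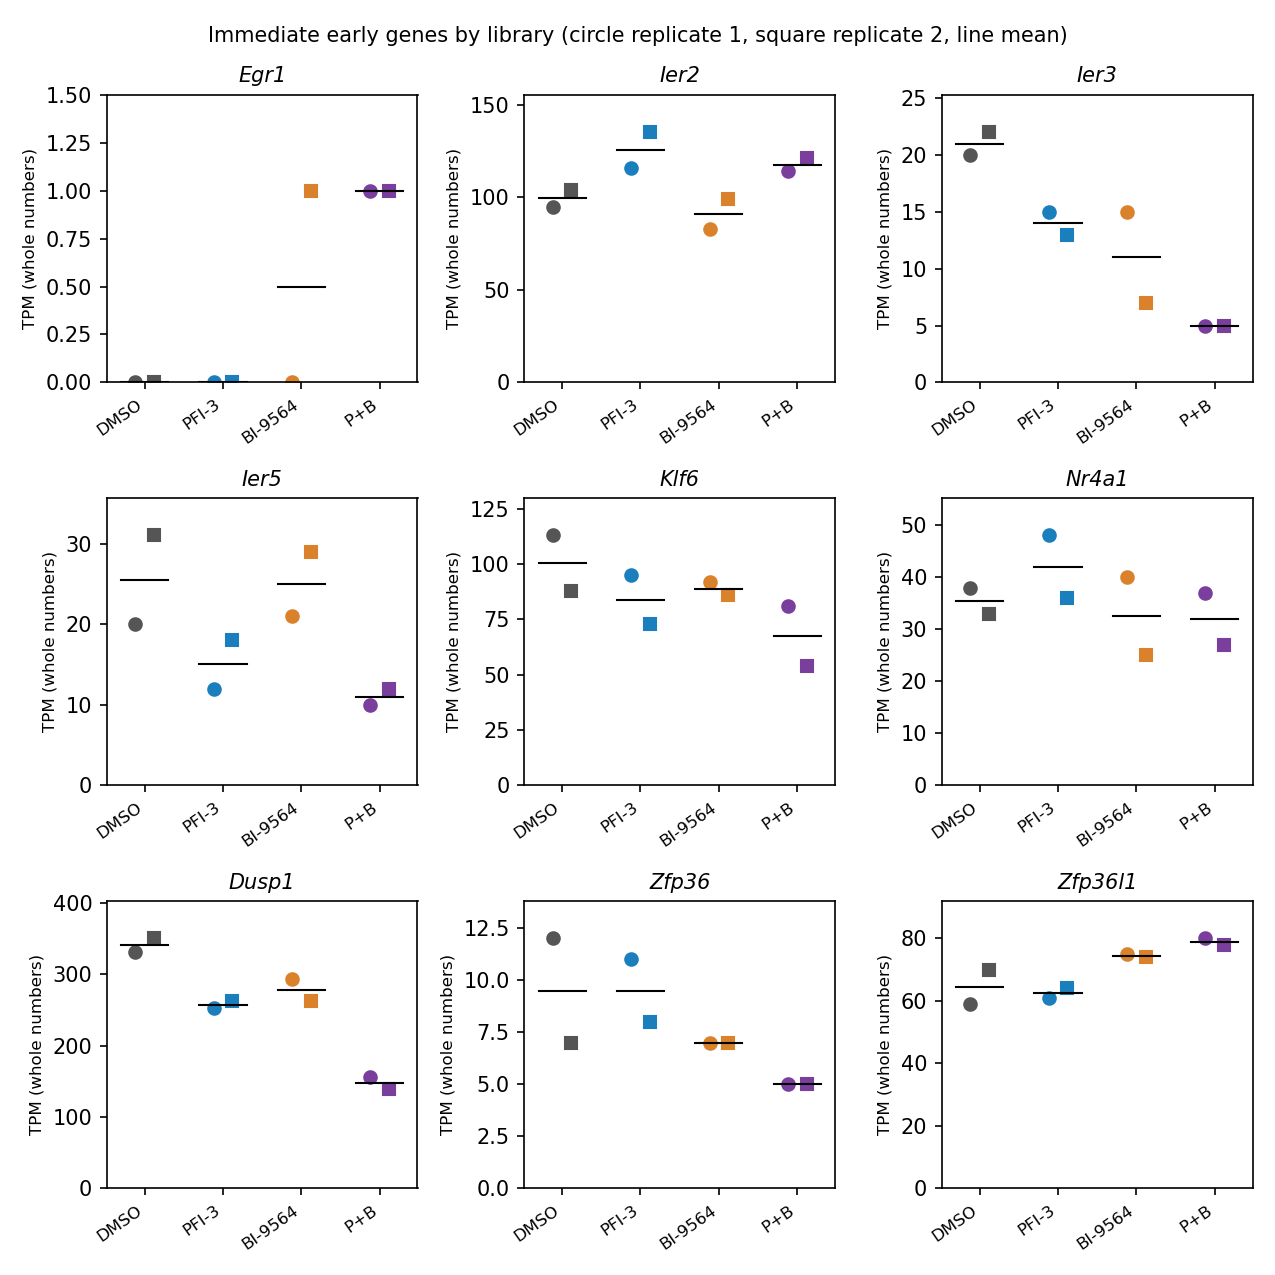
TPM (whole numbers, y axis) of the 9 genes in the 8 libraries, grouped by treatment on the x axis; circles are replicate 1, squares replicate 2 and lines the mean of the 2. Both P+B libraries lie below all 6 others for Dusp1 (156 and 139) and Ier3 (5 and 5), and Egr1 does not exceed 1.

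Dusp1 encodes a dual-specificity phosphatase that removes phosphate from JNK, p38 and ERK and so ends the signal that induced it. Its TPM was 331 and 350 under DMSO, 252 and 263 under PFI-3, 293 and 263 under BI-9564 and 156 and 139 under P+B. It was the most abundant of the 9 genes in every library and its mean lay at percentile 94.4 of the tested genes. Both P+B libraries were below all 6 others, and the single-compound libraries met at 263 and lay below both DMSO libraries. The log2 fold change in P+B against DMSO was −1.20 (SE 0.0922, n = 2 per group, limma adjusted p = 0.001), with a 95% interval from −1.42 to −0.99. Leaving out any 1 of the 8 libraries gave −1.29 to −1.12 with adjusted p from 0.00484 to 0.0233.

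Against PFI-3 alone, Dusp1 was lower in P+B by a log2 fold change of −0.80 (SE 0.0922, limma adjusted p = 0.0111), in a comparison in which 1.31% of all tested genes were called and 1.05% were lower. This call was lost without PFI-3 replicate 1 (adjusted p = 0.121), PFI-3 replicate 2 (0.12) or P+B replicate 2 (0.109). Against BI-9564 alone the value was −0.91 (SE 0.0922, limma adjusted p = 0.0255), where 0.196% of tested genes were called. With any 1 of the 8 libraries left out that adjusted p was 0.0587 to 0.274. For the single compounds against DMSO the log2 fold changes were −0.40 for PFI-3 (limma adjusted p = 0.506) and −0.29 for BI-9564 (limma adjusted p = 0.212). The change in P+B was 0.51 further down than the sum of the 2 single changes on the log2 scale (−0.51, SE 0.13), with an unadjusted limma p of 0.00428 and an adjusted p of 1. In that comparison with the sum 0 of 10222 genes were called, and 333 had an unadjusted p under 0.05. The 3 comparisons with DMSO share the same DMSO libraries. Because the labels give no doses, each compound may have differed in dose between P+B and its single treatment.

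The gene models of Ergic1 and Gm8225 overlap the annotated 56539-base span of Dusp1 on the other strand. Those of AC122252.4 and AC122252.1 overlap it on the same strand and were not among the deposited names. Whether any of these overlaps the 1990-base transcript was not examined. No source used here states whether the counting used strand. Ergic1 had TPM of 98 and 95 under DMSO, 68 and 86 under PFI-3, 63 and 61 under BI-9564 and 57 and 62 under P+B, and Gm8225 did not exceed 1. Ergic1 was thus also lower in P+B than in DMSO, and the part of shared reads in either value was not tested.

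Ier3 encodes a small stress-response protein that acts on cell survival and ERK signalling. Its TPM was 20 and 22 under DMSO, 15 and 13 under PFI-3, 15 and 7 under BI-9564 and 5 and 5 under P+B. The groups followed the order DMSO, PFI-3, BI-9564, P+B by mean, with PFI-3 inside the range of BI-9564 and the P+B libraries below all others. The log2 fold change in P+B against DMSO was −1.87 (SE 0.312, n = 2 per group, limma adjusted p = 0.0161), with a 95% interval from −2.59 to −1.16. If decimals were cut off and not rounded, which the library totals fit better, each P+B value of 5 can stand for anything from 5 to just under 6, and 1 unit there is a large part of the value. The adjusted p rose to 0.0967 without DMSO replicate 1, 0.11 without DMSO replicate 2, 0.0961 without P+B replicate 1 and 0.114 without P+B replicate 2, while the log2 fold change stayed between −1.94 and −1.81.

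Against PFI-3, Ier3 in P+B was −1.32 on the log2 scale (SE 0.312, limma adjusted p = 0.0912). With the replicate number as a block the adjusted p of this change was 0.0438, which passes the thresholds, in a fit that called 3.42% of all tested genes. Against BI-9564 the log2 fold change was −0.92 (limma adjusted p = 0.502), and for this gene the 2 BI-9564 libraries differed more from each other than those of any other group. The single compounds gave −0.55 for PFI-3 (adjusted p = 0.829) and −0.96 for BI-9564 (adjusted p = 0.224) against DMSO.

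Ier5, whose nuclear protein works with heat shock factor HSF1, had TPM of 20 and 31 under DMSO, 12 and 18 under PFI-3, 21 and 29 under BI-9564 and 10 and 12 under P+B. The PFI-3 and P+B groups overlapped, the DMSO and BI-9564 groups overlapped, and both libraries of each of the former lay below both of each of the latter. The log2 fold change in P+B against DMSO was −1.12 (SE 0.278, limma adjusted p = 0.0603), short of the call. With the replicate block, which called 7.02% of all tested genes in this comparison, it had an adjusted p of 0.00563 and was called, and under median centring the adjusted p was 0.0424. Against BI-9564 it was −1.10 (SE 0.278, limma adjusted p = 0.301), and with the replicate block, which called 0.802% of all tested genes there, the adjusted p was 0.0269. PFI-3 against DMSO gave −0.72 (adjusted p = 0.669; 0.183 with the block) and BI-9564 against DMSO gave −0.01 (adjusted p = 0.995, 95% interval −0.65 to 0.62). BI-9564 against PFI-3, 2 compounds with different target bromodomains, gave 0.71 with a 95% interval from 0.07 to 1.35 and a limma adjusted p of 0.321.

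In all 4 groups replicate 2 of Ier5 was the higher library, and the induced gene Jun was also higher in replicate 2 of all 4. Jun TPM, which does not separate transgene from endogenous transcript, was 1970 and 2877 under DMSO, 1570 and 2227 under PFI-3, 2071 and 3011 under BI-9564 and 1569 and 2159 under P+B. Its log2 fold change in P+B against DMSO was −0.37 (limma adjusted p = 0.437; 0.00156 with the replicate block, under the fold threshold). Across replicate numbers, PFI-3 replicate 2 and P+B replicate 2 had more Jun than DMSO replicate 1 and less Ier5 (18 and 12 against 20). Within each replicate number P+B had the lowest Jun (1569 and 2159), with PFI-3 next (1570 and 2227). Ier5 was likewise lowest in P+B and next lowest in PFI-3 within each number. Dusp1 and Ier3 were also at their lowest in the P+B libraries. The part of the Jun level in the values of Ier5, Dusp1 and Ier3 was not tested further.

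**Figure D2:**
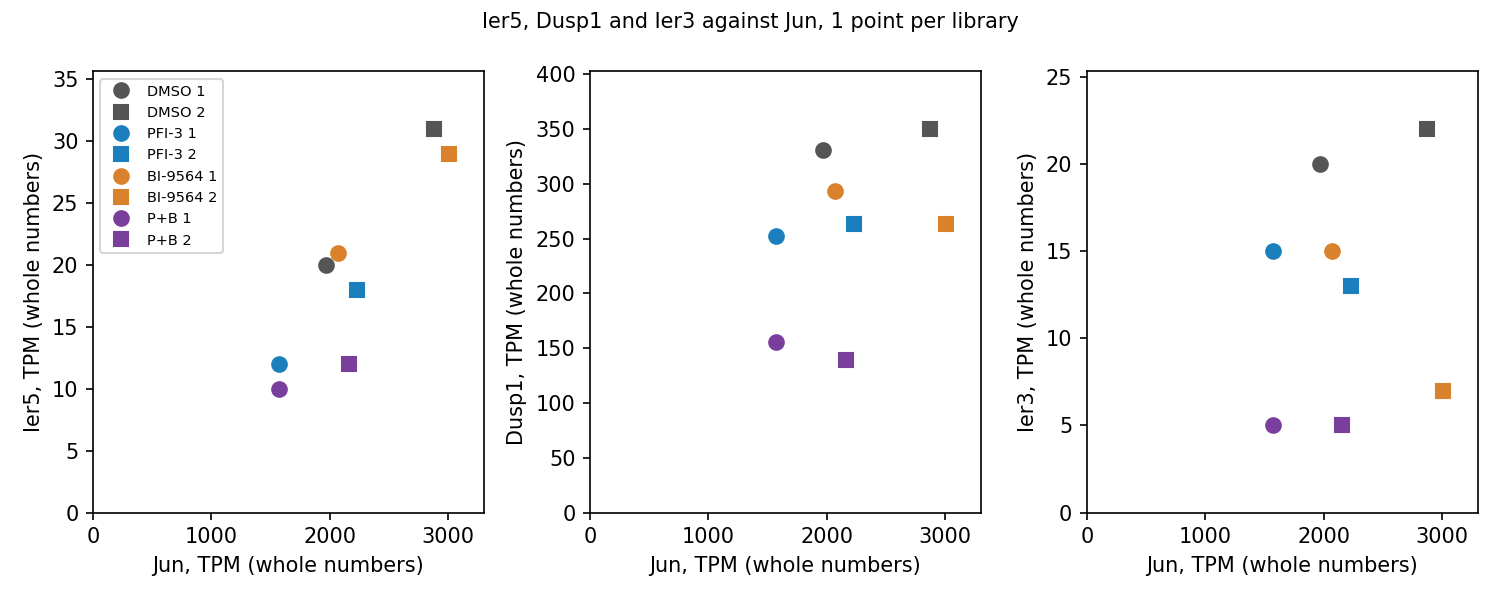
TPM of Ier5, Dusp1 and Ier3 (y axes) against TPM of Jun (x axis), 1 point per library, circles for replicate 1 and squares for replicate 2, coloured by treatment. Within every treatment the square lies right of the circle for Jun and above it for Ier5, whereas for Dusp1 and Ier3 the 2 P+B points (156 and 139, 5 and 5) are the lowest at Jun values of 1569 and 2159.

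Ier2 encodes a nuclear regulator of transcription and migration. Its TPM was 95 and 104 under DMSO, 116 and 135 under PFI-3, 83 and 99 under BI-9564 and 114 and 121 under P+B. Both groups with PFI-3 lay above the DMSO group, and BI-9564 overlapped DMSO. None of these differences was called: the log2 fold change was 0.33 for PFI-3 (SE 0.122, limma adjusted p = 0.661), −0.13 for BI-9564 (adjusted p = 0.665) and 0.24 for P+B (adjusted p = 0.294). BI-9564 against PFI-3 gave −0.46 (limma adjusted p = 0.18; 0.0333 with the replicate block, under the fold threshold), with a 95% interval from −0.74 to −0.18.

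Among the transcription factors, Egr1 (chr18:34859823-34864984), a zinc finger factor and the usual marker of ERK activity, was listed at 0 in both DMSO and both PFI-3 libraries, at 0 and 1 with BI-9564, and at 1 in both P+B libraries. No fold is given at such values. Its relatives Egr2, Egr3 and Egr4 did not exceed 1 in any library.

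Klf6, a zinc finger factor of the Krüppel family, had TPM of 113 and 88 under DMSO, 95 and 73 under PFI-3, 92 and 86 under BI-9564 and 81 and 54 under P+B. Replicate 1 was the higher in each group, and the P+B libraries were below both DMSO libraries. In P+B against DMSO Klf6 was at −0.58 on the log2 scale (SE 0.211, limma adjusted p = 0.153). With the replicate block the adjusted p was 0.0199, but the fold (−0.58486 on the log2 scale) lay just short of the threshold of 0.58496. The single compounds gave −0.26 (PFI-3, adjusted p = 0.898) and −0.16 (BI-9564, adjusted p = 0.767).

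Nr4a1, an orphan nuclear receptor, had TPM of 38 and 33 under DMSO, 48 and 36 under PFI-3, 40 and 25 under BI-9564 and 37 and 27 under P+B. P+B overlapped each other group, and replicate 1 was again the higher in every group. In P+B against DMSO the value was −0.16 on the log2 scale (limma adjusted p = 0.752), with a 95% interval from −0.73 to 0.42, and it was 0.06 without P+B replicate 2. Of its relatives, Nr4a2 had values from 1 to 5 and Nr4a3 from 0 to 1.

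The messenger decay factors went in opposite directions without a call. Zfp36 (tristetraprolin), which binds AU-rich 3′UTRs and is itself such a transcript, had TPM of 12 and 7 under DMSO, 11 and 8 under PFI-3, 7 and 7 under BI-9564 and 5 and 5 under P+B. The P+B libraries were the lowest, 2 units under the BI-9564 libraries and 1 DMSO library. The log2 fold change in P+B against DMSO was −0.77 (SE 0.304, limma adjusted p = 0.186) and against PFI-3 −0.79 (limma adjusted p = 0.248).

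Zfp36l1, a paralog with the same RNA-binding zinc fingers, had TPM of 59 and 70 under DMSO, 61 and 64 under PFI-3, 75 and 74 under BI-9564 and 80 and 78 under P+B. The P+B libraries were above all 6 others. The log2 fold change was 0.29 in P+B against DMSO (SE 0.112, limma adjusted p = 0.171), 0.33 against PFI-3 (limma adjusted p = 0.192) and 0.08 against BI-9564 (limma adjusted p = 0.928).

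**Figure D3:**
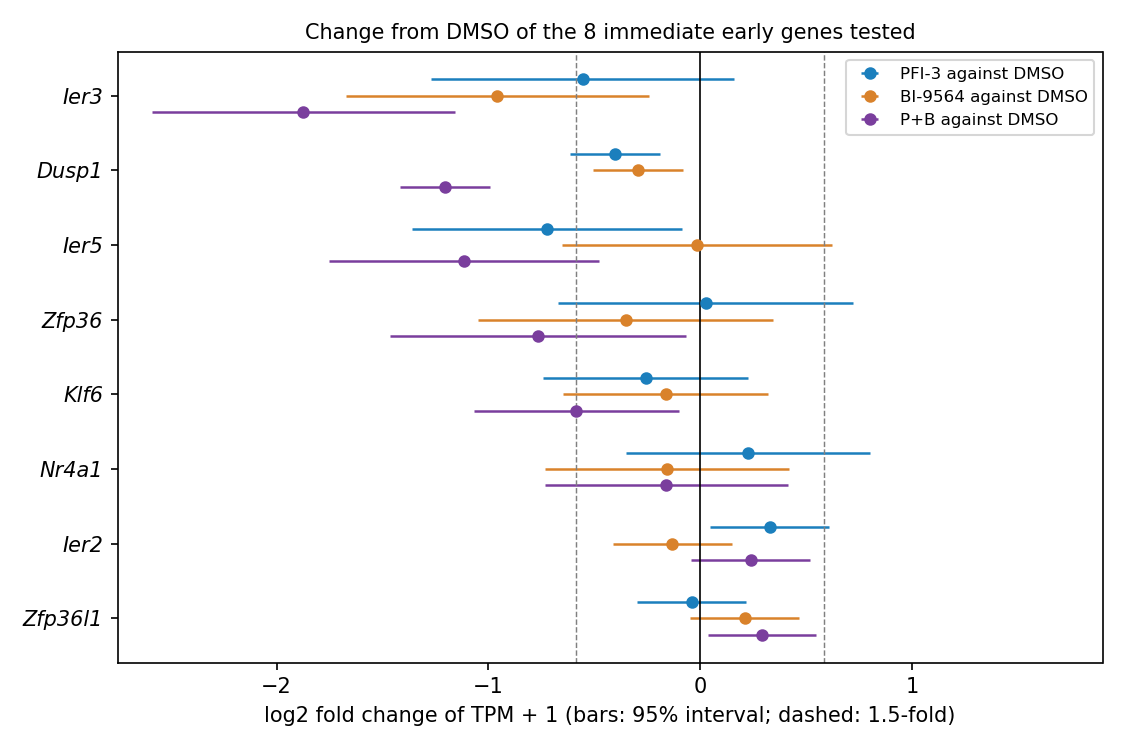
Log2 fold change of TPM + 1 (x axis) against DMSO for the 8 genes tested (y axis), with 95% intervals from the limma fit; dashed lines mark 1.5-fold and colours the compound. For Dusp1 the P+B interval (−1.42 to −0.99) lies left of both single-compound intervals, and the intervals of Nr4a1 include 0 in all 3 comparisons.

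Over the 8 genes the median log2 fold change was −0.68 in P+B against DMSO, with 6 of 8 below 0, beside a median of 0.06 and 41.7% below 0 over all tested genes. It was −0.15 for PFI-3 and −0.16 for BI-9564, beside 0.02 for all tested genes in each. In P+B against DMSO the 2 groups did not overlap for 7 of the 8 genes, 5 lower (Ier3, Ier5, Klf6, Dusp1 and Zfp36) and 2 higher (Ier2 and Zfp36l1), beside 18.9% lower and 28.6% higher over all tested genes. For PFI-3 against DMSO 3 genes were lower and 1 higher without overlap (12.8% and 16.5% of all tested genes), and for BI-9564 2 were lower and 1 higher (18.3% and 22.9%).

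The counts of 0 calls in the single compounds had the following background. For PFI-3 against DMSO limma called 0% of the tested genes, 694 of which had an unadjusted p under 0.05, as did 3 of the 8 genes. For BI-9564 against DMSO 0.108% were called, and 2 of the 8 genes had an unadjusted p under 0.05, as did 1523 of all tested genes. Between the compounds (BI-9564 against PFI-3) 0.108% were called, and 0 of the 8 genes. Of the 8, 2 had an unadjusted p under 0.05, as did 1448 of all tested genes. limma without a trend called 0 of all tested genes in these 3 comparisons, and so 0 of the 8. With the replicate block 0% of all tested genes were called for PFI-3 against DMSO, 1.53% for BI-9564 against DMSO and 1.48% for BI-9564 against PFI-3, and again 0 of the 8.

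Among 37 other immediate early genes, 28 were tested, with a median log2 fold change of −0.28 in P+B against DMSO. Of these 8 fell and 1 rose, beside 2.72% called lower and 1.28% called higher over all tested genes. With the replicate block 11 fell and 5 rose, beside 7.02% of all tested genes called in either direction. Fewer were called without 1 of the DMSO or P+B libraries, as was so over all tested genes. The 4 with the smallest adjusted p were all lower. Dusp5, a phosphatase for nuclear ERK, had TPM of 77 and 86 under DMSO, 70 and 63 under PFI-3, 74 and 65 under BI-9564 and 34 and 28 under P+B (−1.37 on the log2 scale, limma adjusted p = 0.00255). Hbegf, an EGF receptor ligand, had 45 and 32, 22 and 15, 19 and 15, and 8 and 6 in the same order (−2.30, limma adjusted p = 0.0031).

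For Hbegf, as for Ier3, the single-compound libraries lay between DMSO and P+B, whereas for Dusp5 they lay nearer to the DMSO libraries. Myc, a growth factor-induced transcription factor, had TPM of 40 and 32, 26 and 25, 32 and 33, and 16 and 15 (−1.16, limma adjusted p = 0.00546). Trib1, a pseudokinase, had 44 and 48, 32 and 38, 32 and 42, and 16 and 22 (−1.25, limma adjusted p = 0.0122). The call was lost without DMSO replicate 1 for Hbegf (adjusted p = 0.0535), without DMSO replicate 1 or P+B replicate 2 for Myc (0.0563 and 0.0543), and without either DMSO library or P+B replicate 1 for Trib1 (0.0849, 0.0994 and 0.0851). The others that fell were Dusp2, Errfi1, Sik1 and Nfkbia.

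Btg2, an antiproliferative gene named here after its values were seen, was the 1 that rose, with TPM of 18 and 12 under DMSO, 20 and 13 under PFI-3, 40 and 33 under BI-9564 and 36 and 38 under P+B (1.27 on the log2 scale, limma adjusted p = 0.0273). Both P+B values lay between the 2 values with BI-9564 alone. The genes that rose only with the block were Klf2, Ier5l, Gadd45g and Rhob, also named after their values were seen.

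Of 15 tested regulators upstream of immediate early genes (SRF, ternary complex factors and kinases, 17 listed), 1 was called. With the replicate block or in limma without a trend 2 were called. Over all tested genes 4% were called, 7.02% with the block and 3.77% without a trend. With so few genes, these counts are not read as a result about the list. Atf1, the CREB relative that binds cyclic AMP response elements, had TPM of 188 and 237 under DMSO, 181 and 187 under PFI-3, 128 and 136 under BI-9564 and 100 and 95 under P+B (−1.11 on the log2 scale, limma adjusted p = 0.00282). The second was Rps6ka3, an ERK-activated ribosomal S6 kinase named after its values were seen, at 14 and 14 in DMSO and 21 and 26 with P+B (0.70, limma adjusted p = 0.0528; 0.0319 with the block). Srf itself had 24 and 30 in DMSO and 36 and 39 with P+B and was not called. Of 8 partners and substrates of the encoded proteins, 1 was called, again beside 4% of all tested genes. It was Mapk9, which encodes a JNK kinase that DUSP1 acts on. Mapk9 rose from 22 and 25 in DMSO to 39 and 38 with P+B (0.69, limma adjusted p = 0.0209). This call was lost without any 1 of the DMSO or P+B libraries (0.0671 to 0.11).

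Of 14 genes for AU-rich messenger decay limma called 0 of 14, with 1 at an unadjusted p under 0.05 and a median log2 fold change of 0.02. Of 6 tested heat shock genes 0 were called, with 3 at an unadjusted p under 0.05 and a median of −0.33. Of 9 embryonic stem cell markers 0 were called, with 2 at an unadjusted p under 0.05. With the replicate block 1 marker was higher, Esrrb, in a fit that called 7.02% of all tested genes. Over all 10222 tested genes 2306 had an unadjusted p under 0.05 in P+B against DMSO without the block.

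In the AP-1 family, 4 of 6 tested genes fell in P+B against DMSO, beside 2.72% of all tested genes called lower. They were Fosl1, Atf3, Fosl2 and Junb, with log2 fold changes from −2.33 to −0.74. Fosl1 had TPM of 47 and 67 in DMSO and 12 and 9 with P+B (limma adjusted p = 0.00296). The calls of Atf3, Fosl2 and Junb did not all hold when 1 of the DMSO or P+B libraries was left out. Calls were then also fewer over all tested genes. Fos and Fosb did not exceed 2 in any library.

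**Figure D4:**
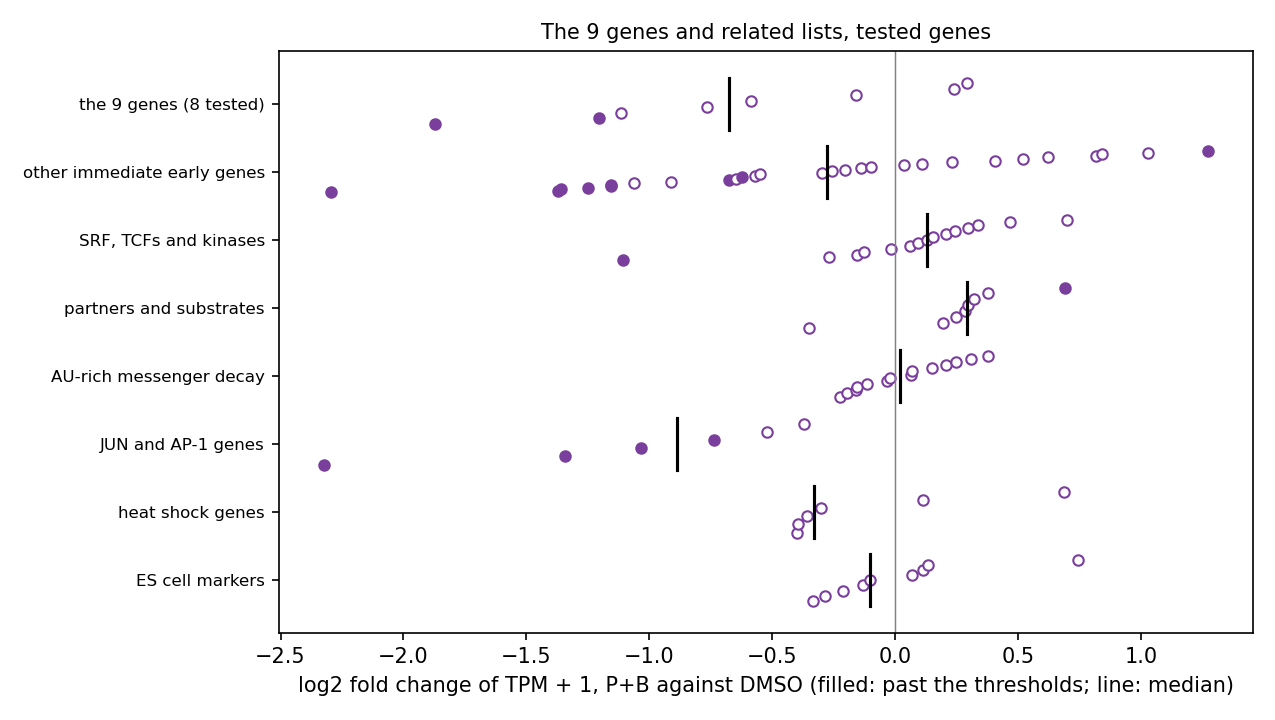
Log2 fold change of TPM + 1 in P+B against DMSO (x axis) for the tested genes of each list (y axis), with filled points for genes past both thresholds and a line at each list's median. The median is −0.68 for the 9 genes (8 tested), −0.28 for the other immediate early genes and 0.02 for AU-rich messenger decay, and the filled points of the upper rows lie mostly left of 0.

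The genes whose pattern was most like that of the 2 called genes were found by Pearson's r of log2(TPM + 1) over the 8 libraries among the other 10221 tested genes. These r values are descriptions, since the 8 libraries share the 4 treatments. For Dusp1 they were Adamts9 (r = 0.986), Dusp14 (0.985) and Dusp5 (0.985). Dusp14, a further dual-specificity phosphatase, had TPM of 280 and 315 under DMSO, 205 and 207 under PFI-3, 228 and 248 under BI-9564 and 122 and 111 under P+B. For Ier3 they were Lmna (0.975), Krt18 (0.969) and Bex1 (0.968). Lmna, which encodes lamins A and C, had 125 and 108, 90 and 88, 79 and 50, and 45 and 37 in the same order, and Krt18, an epithelial keratin, had 103 and 89, 66 and 51, 58 and 38, and 27 and 20. In each of these 3 genes the 2 P+B libraries were the lowest of the 8.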

How the data were processed

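Poly(A)-selected RNA of 8 libraries of JUN TetON ESCs (4 treatments, 2 libraries each) was sequenced by the study's authors. Their processing notes name bcl2fastq, Bowtie2 (2.2.5), RSEM (1.3.0) and mm10. The deposited values are a score in the unit check used here: TPM that the authors had turned into whole numbers. Whether by rounding or truncation is not given in the sources used here, but the libraries fell 8103 to 8426 short of a full TPM total, 0.579 to 0.612 per name above 0, a shortfall that truncation leaves and rounding does not. The depth of the libraries, and so a limit of detection, is unknown. Because the deposited table holds no counts, the count model named in the study's methods was not run. Of 50600 names, 33075 were at 0 in all libraries. The 94 repeated names were kept as separate rows, and 0 columns belonged to other samples.

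Groups were taken from the labels. All genes averaging 5 or more were fitted on log2(TPM + 1) with limma 3.58.1 (R 4.3.3; empirical Bayes with a trend, 4 groups, 4 residual degrees of freedom), with Benjamini-Hochberg adjustment per comparison over all 10222 genes. Fold changes on this scale understate the change of low genes. An exact permutation test of 2 against 2 libraries cannot go below p = 0.333 and was not used. In a simulation, log2 values were drawn independently around each gene's mean over the 8 libraries, with the fit's own spread and no replicate effect. Changes were added to P+B. For P+B against DMSO the calls took in 93 of 97 genes changed by 2 on the log2 scale, 78 of 99 changed by 1, and 6 of 9907 unchanged genes. These data meet the model's assumptions by construction, so they cannot show how often calls are right in the real libraries.

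The difference between replicate 2 and replicate 1 correlated over the tested genes between all 6 pairs of groups (r from 0.143 to 0.236), so the replicate numbers were taken as paired, and values from a model with a replicate term (the block) stand beside those results whose call it alters. The pairing comes from these values and not from the labels. The 9 genes and all lists were chosen with earlier results of these data known, so no list's direction is independent evidence. Besides the 9 genes, the text names the genes past the thresholds in P+B against DMSO in each list, with values for at most 4 per list by adjusted p, and the 3 genes most correlated with each called gene, other genes being named as chosen later. The labels give 6 h for all libraries, which may be the time in compound only. Sequences came from RefSeq (GRCm38.p6 promoters) and GENCODE M21 with its genome (GRCm38, the mm10 build). Figures were drawn with matplotlib 3.10.9 under Python 3.11.15. Alternatives were another normalization, pseudocount, filter, trend, block, threshold, set of libraries, or 1 library left out.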

Additional observations from a re-analysis of the deposited data

How the results depend on the processing

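Of 1451 recomputed log2 fold changes and list counts under 20 alternatives, 1332 kept their direction and side of the thresholds, 63 lost the call, 7 gained it, 24 changed sign and 25 list counts moved by over 1.5 times. The number of the 8 genes called in P+B against DMSO was 2. Raising the filter to a mean of 20 left 5 of the 8 genes in the test. Ier3, whose libraries averaged 12.75, was removed and not tested there. Dusp1 was the 1 gene of the 5 called, beside 5.01% of 6521 genes. At an adjusted p under 0.01 the number was 1 (Dusp1; 1.21% of all tested genes called). The number was 0 when only the libraries compared were fitted, with 2 residual degrees of freedom. That fit gave a limma adjusted p of 0.1 for both Dusp1 and Ier3. It called 0 genes in all, and 1962 had an unadjusted p under 0.05. Leaving out 1 library at a time gave log2 fold changes of −1.29 to −1.12 for Dusp1 and −1.94 to −1.81 for Ier3. The number was 3, with Ier5, without a filter (adjusted p of Ier5 = 0.00154; 1.79% of 50600 genes called) and under median centring (0.0424; 4.76% called). Against PFI-3 the number was 1. It was 2 without a filter, 0 in limma without a trend, 0 with only the libraries compared, 0 at an adjusted p under 0.01, and 0 to 1 with a library left out. Over all genes these fits called 525 genes without a filter, 4 without a trend, 0, 9, and 0 to 66, beside 134. Against BI-9564 the number was 1. It was 0 with a mean of at least 1, 2 without a filter, 0 without a trend, 0 with only the libraries compared, 0 at an adjusted p under 0.01, and 0 with any library left out. Over all genes they called 2, 244, 2, 0, 1, and 0 to 7 genes, beside 20, so the counts of 0 came with few calls overall.

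With the replicate block, which pairs libraries by number, the number was 3 in P+B against DMSO (Dusp1, Ier3 and Ier5), 2 against PFI-3 (Dusp1 and Ier3) and 2 against BI-9564 (Dusp1 and Ier5). The block called 7.02%, 3.42% and 0.802% of all tested genes in these comparisons, beside 4%, 1.31% and 0.196% without it, and the other immediate early genes called in P+B against DMSO rose from 9 to 16. Of the 8 genes the block changed no other call.

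The signs that turned belonged to log2 fold changes that were not called. Zfp36 in PFI-3 against DMSO was −0.0097 under quantile normalization and −0.020 under median centring. With 1 library left out in turn, these values crossed 0. In P+B against DMSO Nr4a1 ran from −0.38 to 0.061. In PFI-3 against DMSO Zfp36 ran from −0.32 to 0.38 and Zfp36l1 from −0.16 to 0.081. In BI-9564 against DMSO Ier5 ran from −0.32 to 0.29, Klf6 from −0.34 to 0.015 and Nr4a1 from −0.49 to 0.17. In P+B against PFI-3 Ier2 ran from −0.20 to 0.018, and in P+B against BI-9564 Nr4a1 from −0.33 to 0.33. In BI-9564 against PFI-3 Ier3 ran from −0.90 to 0.096 and Klf6 from −0.094 to 0.28. Against the sum of the single compounds Ier2 ran from −0.085 to 0.17, Ier3 from −0.86 to 0.14, Klf6 from −0.45 to 0.12 and Nr4a1 from −0.56 to 0.10. The causes were not tested.

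The limits are 2 libraries per group, unknown depth, whole-number values that are coarse for Ier3, Zfp36 and Egr1, 1 cell line, and the lack of an uninduced group in the libraries analysed here. The compound concentrations in these libraries are also unknown.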
